A study of Homo sapiens with 208 samples.

Results

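The BH3-only proapoptotic genes are 8 genes of the BCL2 family, BMF, BCL2L11, BBC3, PMAIP1, BAD, BIK, HRK and BID. They were taken by name, through the accession that each array probe carries, from 16961 genes with a named probe, and all 8 were among the 13263 genes tested. Their mRNA was followed in PC9, a lung adenocarcinoma line with an activating EGFR deletion that is sensitive to the EGFR kinase inhibitor gefitinib, and in PC9M2, a gefitinib-resistant line raised from PC9 by long culture in the drug and labelled PC9GRM2 in the sample records. Both lines were starved for 48 h and then received no treatment, EGF at 100 ng/ml, gefitinib at 0.5 µM, or both, with the drug given ahead of the first sampling. Each of the 8 courses had 26 time points, 0, 0.5 and 1 h and then every hour to 24 h, with 1 one-colour array at each. There is 1 sensitive line and 1 resistant line, so every difference between them holds for these lines.

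BH3-only proteins carry a single BCL2 homology domain and start the mitochondrial pathway of cell death. They bind the survival proteins BCL2, BCL-XL and MCL1, and some also activate the pore-forming effectors BAX and BAK directly. BIM (the product of BCL2L11), PUMA (BBC3) and BID are usually counted as direct activators, and BMF, NOXA (PMAIP1), BAD, BIK and HRK as sensitizers that act by occupying survival proteins. Transcription of several of them is held down by growth factor signalling through ERK and AKT, and BIM is a well-known mediator of the response of EGFR-mutant lung cancer cells to EGFR inhibitors.

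Levels are log2 values of the quantile-normalized array intensity, and a difference is the mean of 26 differences at matched times. Between 24755 and 36332 spots per array were well above background, and the keratins KRT7, KRT8, KRT18 and KRT19 and the epithelial genes EPCAM and CDH1 were so on every array of both lines, whereas the lung genes NKX2-1 and SFTPB were so on 70 and 46 PC9 arrays and on 98 and 43 PC9M2 arrays. Of the markers of other cells, the leukocyte gene PTPRC was so on 1 array and PDGFRB on 1. COL1A2 was so on 5 PC9 and 4 PC9M2 arrays and CDH5 on 18 and 16. But CD68 and VWF were so on every array, PECAM1 on all but 1 and CD3E on 96 PC9 and 98 PC9M2 arrays. The part of these markers in the results was not tested. The PC9 arrays were scanned on 8 days and the PC9M2 arrays on 9 others, so line and scan period cannot be told apart. Between 221 and 1702 spots were saturated on each PC9 array and 0 on each PC9M2 array. How this bears on the differences between the lines in general was not tested. In PC9M2, the 2 arrays labelled EGF and EGF with gefitinib at 0.5 h went against their labels. Over the 1289 other genes that differed with gefitinib alone in PC9M2 by more than 1 on the log2 scale, the mean difference of EGF with gefitinib minus EGF, signed by each gene's direction with gefitinib alone, was -0.39 at 0.5 h and between 0.27 and 2.19 at the other 25 times. In PC9 it was positive at all 26 times. The labels were kept, and results that rest on these arrays are also given without 0.5 h. Another 3 arrays (PC9M2 without treatment at 11 h, PC9 with gefitinib at 16 h and PC9 without treatment at 18 h) correlated below 0.97 with their neighbours in time, where the median over all arrays was 0.992.

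The first question was what gefitinib did to these genes in each line. Without EGF, 4 of the 8 genes were higher with gefitinib in PC9 and 2 were lower, at an adjusted p under 0.05 (limma on the paired differences, Benjamini-Hochberg over 13263 genes), where 72.3% of all genes tested differed, 35.1% higher and 37.2% lower. In PC9M2, 5 were higher and 2 lower, where 66.7% of all genes differed, 32.6% higher and 34.2% lower. BMF, HRK, BAD and PMAIP1 were higher in both lines, and BIK and BID were lower in both. The median difference of the 8 genes was 0.31 in PC9 and 0.39 in PC9M2, and that of all genes tested was -0.02 and -0.01. The share of members called was near that of all genes, so the results below are the sizes of the single members. Each course was a single series of arrays, so the p-values measure how steadily 1 course lay above another over the day and not the spread between cultures.

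BMF, whose protein binds survival proteins and is otherwise held on the actin cytoskeleton, had the largest gefitinib difference of the 8 in both lines. In PC9 without treatment its level ran from 3.79 to 6.86 with a median of 5.24, and with gefitinib from 8.31 to 9.76 with a median of 9.01. In PC9M2 without treatment it ran from 4.75 to 9.13 with a median of 6.14, and with gefitinib from 9.35 to 12.41 with a median of 10.66. The treated and untreated ranges did not overlap in either line, and the share of all genes tested with such ranges was not computed. The mean difference was 3.77 ± 0.19 (SE, n = 26 times, adjusted p = 7.8e-16) in PC9, a 13.6-fold higher level, and 4.17 ± 0.15 (adjusted p = 1.6e-18) in PC9M2, an 18.0-fold higher level. BMF was higher at 26 of 26 times in both lines and ranked 20th in PC9 and 3rd in PC9M2 among the 13263 genes from the highest difference down. The size depends on how low signals are treated, because BMF was well above background on 21 of 26 untreated PC9 arrays and 24 of 26 untreated PC9M2 arrays. With normexp background correction and an offset of 50 the difference was 1.59 in PC9 and 2.69 in PC9M2, and BMF passed the test in both.

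**Figure D1:**
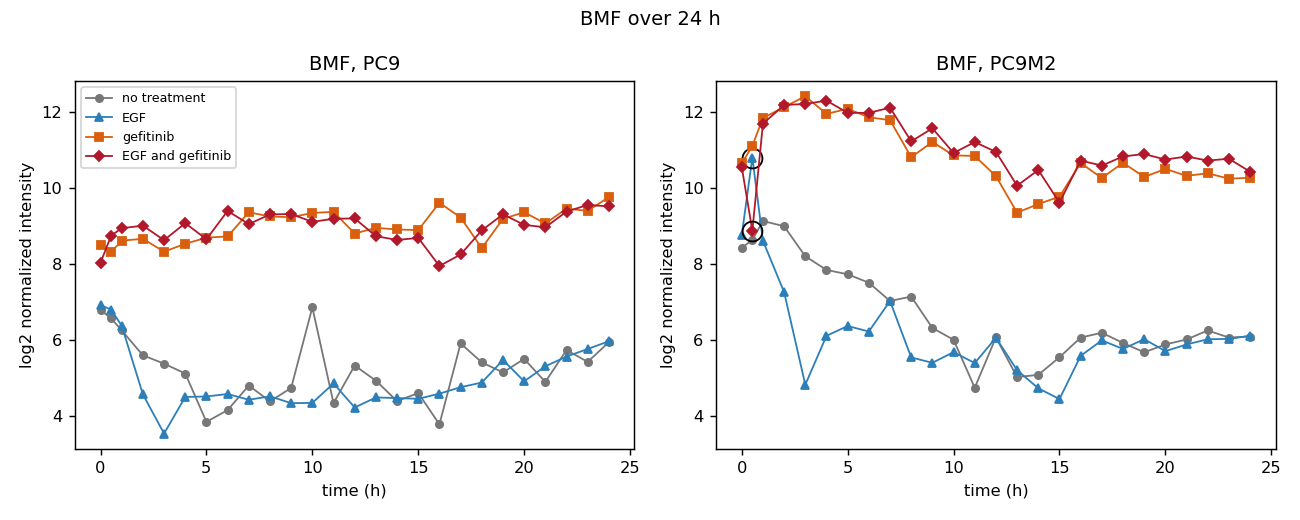
Level of BMF (log2 normalized intensity) against time in h, in PC9 on the left and PC9M2 on the right. Each point is 1 array, and rings mark the PC9M2 arrays at 0.5 h that went against their labels. Both gefitinib courses lie above both courses without the drug in each line, apart from the ringed arrays, and BMF without the drug falls over the first hours.

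The difference in BMF was already present at 0 h, at 1.70 in PC9 and 2.22 in PC9M2. It widened as the untreated level fell, and the treated level changed as well. The untreated course passed the spline F-test for change over time in both lines (adjusted p = 0.0045 in PC9 and 6.2e-11 in PC9M2). So did the gefitinib course (adjusted p = 0.00038 in PC9 and 1.1e-07 in PC9M2). Without treatment BMF went from 6.79 at 0 h to 3.85 at 5 h in PC9, with a single high array of 6.86 at 10 h, and from 9.13 at 1 h to 4.75 at 11 h in PC9M2, an array that correlated poorly with its neighbours. With gefitinib it rose in PC9M2 from 10.64 at 0 h to 12.41 at 3 h and was at 10.27 at 24 h. In PC9 with gefitinib it went from 8.49 at 0 h to 9.76 at 24 h. The gefitinib difference in PC9 averaged 3.08 over 0 to 6 h, 4.19 over 7 to 15 h and 3.97 over 16 to 24 h. In PC9M2 the same averages were 3.44, 4.61 and 4.38. The change of the difference over time passed the spline F-test in both lines (adjusted p = 0.0010 in PC9 and 1.7e-05 in PC9M2), as did 52.3% and 45.5% of all genes tested.

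HRK, a BH3-only gene best known from neurons deprived of growth factor, and BAD, whose protein is bound by 14-3-3 proteins when growth factor kinases phosphorylate it, followed at smaller sizes. HRK without treatment ran from 9.87 to 10.82 in PC9 (median 10.44) and with gefitinib from 10.43 to 12.06 (median 11.62). In PC9M2 it ran from 8.44 to 10.29 without treatment (median 8.76) and from 9.81 to 10.94 with gefitinib (median 10.52). The ranges overlapped in both lines, through arrays of the first hours. HRK was higher with gefitinib by 1.12 ± 0.11 in PC9 (SE, n = 26 times, 24 higher, adjusted p = 6.9e-10) and by 1.50 ± 0.14 in PC9M2 (24 higher, 1.6e-10). A second HRK probe gave far less, 0.17 (adjusted p = 0.080 in a fit of every probe, 25 times, as outlier spots were left out) in PC9 and 0.23 (adjusted p = 0.038) in PC9M2.

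BAD without treatment ran from 10.47 to 11.74 in PC9 (median 11.16) and with gefitinib from 11.10 to 13.20 (median 12.44). In PC9M2 it ran from 11.88 to 13.19 without treatment (median 12.58) and from 12.15 to 13.39 with gefitinib (median 13.00). Again the ranges overlapped in both lines. The difference was 1.04 ± 0.11 in PC9 (SE, n = 26 times, 25 higher, adjusted p = 3.5e-09) and 0.42 ± 0.07 in PC9M2 (23 higher, adjusted p = 1.4e-05).

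For both genes the drug and the untreated course parted over the day. The HRK difference averaged 0.45 over 0 to 6 h, 1.29 over 7 to 15 h and 1.54 over 16 to 24 h in PC9, and 0.59, 1.73 and 2.08 in PC9M2. The BAD difference averaged 0.39, 1.14 and 1.53 in PC9 and 0.07, 0.35 and 0.81 in PC9M2. Their difference changed over time in both lines (adjusted p from 2.5e-08 to 0.00025 in the spline F-test). In PC9 the treated level rose while the untreated level of HRK did not pass the test for change over time (fitted range 0.22, adjusted p = 0.81). In PC9M2 the untreated HRK level fell, from 9.85 at 0 h to 8.70 at 24 h, with a fitted range of 1.61 (adjusted p = 1.8e-08).

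**Figure D2:**
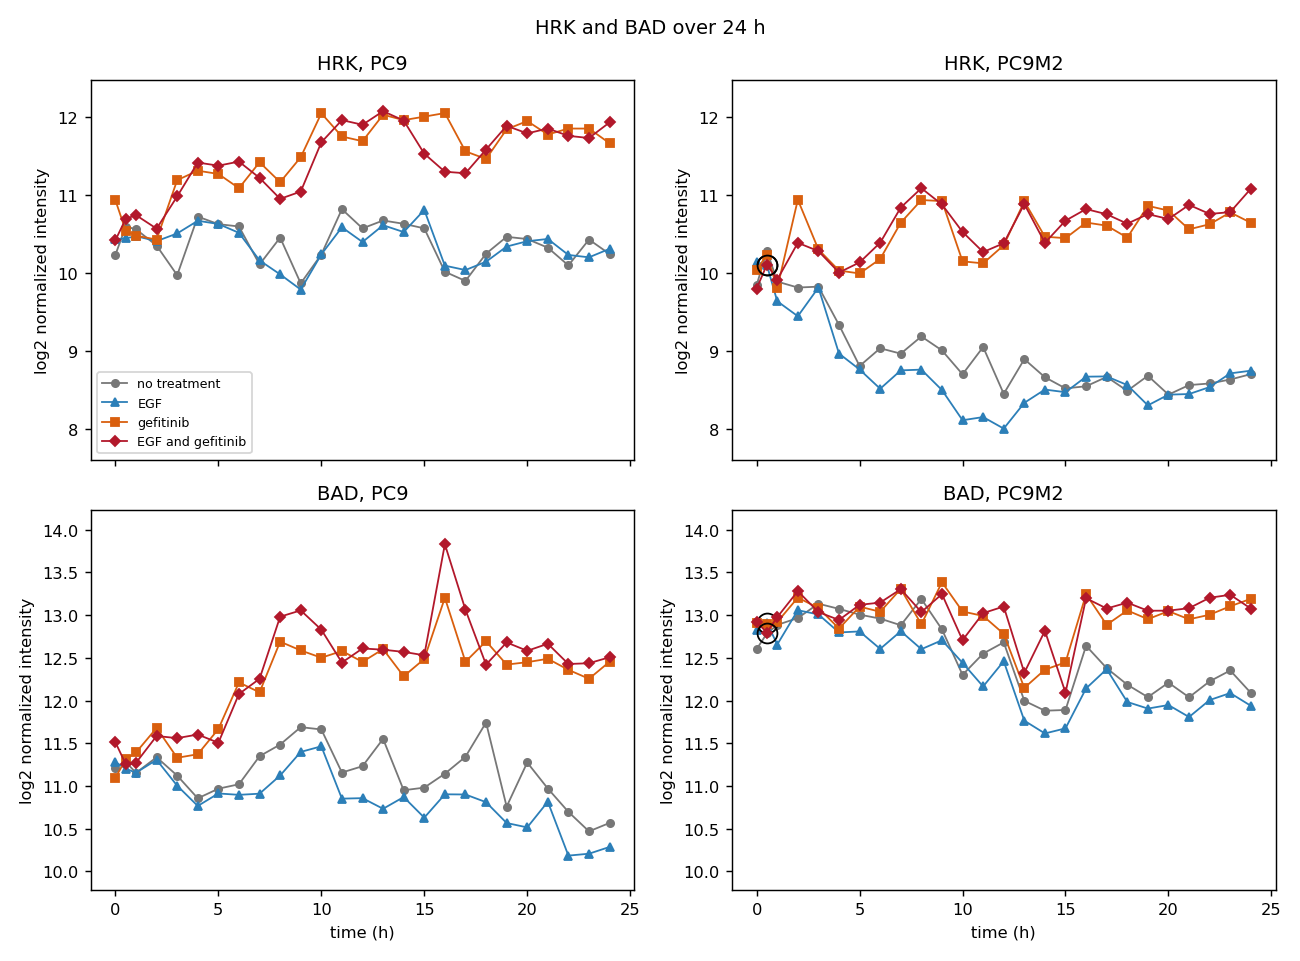
Levels of HRK (upper panels) and BAD (lower panels), as log2 normalized intensity against time in h, in PC9 and PC9M2. Each point is 1 array, and rings mark the PC9M2 arrays at 0.5 h that went against their labels. The gefitinib courses lie closer to the others in the first hours than later, and in PC9M2 the HRK courses without the drug fall over the day.

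BMF, HRK and BAD also moved together among themselves. Over all arrays of a line (4 courses of 26), which share the drug, the time course and the scan days, BMF correlated with HRK at r = 0.81 in PC9 and 0.89 in PC9M2, BMF with BAD at 0.78 and 0.75, and HRK with BAD at 0.79 and 0.71. The genes most like BMF over the arrays, by the lower of the 2 lines' r, were CALHM2 (0.96), BRD8 (0.95) and ULK1 (0.94), a kinase that starts autophagy. Those most like HRK were TLCD5, RBKS and AAMDC (each 0.94), and those most like BAD were POMT2, ILK and TMCO4 (each 0.91). The closest gene to each of the other 5 members reached 0.69 (CPSF2 for BID) to 0.87 (CDC42EP5 for BBC3).

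The sequences upstream of BMF, HRK and BAD are shown because these 3 genes moved together, and that of BCL2L11 because it holds a forkhead motif. They come from the RefSeq promoter table on GRCh38.p14, which lists 7 of the 8 genes (not BIK). Each is the 250 bases before a listed transcription start, read 5′ to 3′ on the gene's strand. Capitals mark matches to a GC box (GGGCGG or its complement CCGCCC) and to a forkhead (FOXO) motif (TGTTTAC or its complement GTAAACA). BMF lies on the minus strand (chr15:40108880-40109129), as do HRK (chr12:116881442-116881691) and BAD (chr11:64284705-64284954), and BCL2L11 lies on the plus strand (chr2:111120664-111120913).
BMF: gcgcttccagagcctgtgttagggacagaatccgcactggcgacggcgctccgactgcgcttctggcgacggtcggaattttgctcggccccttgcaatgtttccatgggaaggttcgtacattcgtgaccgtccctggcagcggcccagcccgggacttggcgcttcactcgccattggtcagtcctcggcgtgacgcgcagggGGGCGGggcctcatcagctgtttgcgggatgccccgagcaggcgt
HRK: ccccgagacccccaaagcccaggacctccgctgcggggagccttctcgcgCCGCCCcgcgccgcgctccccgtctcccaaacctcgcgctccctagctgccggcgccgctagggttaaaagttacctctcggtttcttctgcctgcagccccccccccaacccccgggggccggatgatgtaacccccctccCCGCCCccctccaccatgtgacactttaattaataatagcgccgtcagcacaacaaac
BAD: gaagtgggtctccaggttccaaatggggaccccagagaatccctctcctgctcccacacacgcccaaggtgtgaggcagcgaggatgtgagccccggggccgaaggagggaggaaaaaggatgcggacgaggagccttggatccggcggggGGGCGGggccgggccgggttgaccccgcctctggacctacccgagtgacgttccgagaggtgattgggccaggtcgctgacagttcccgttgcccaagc
BCL2L11: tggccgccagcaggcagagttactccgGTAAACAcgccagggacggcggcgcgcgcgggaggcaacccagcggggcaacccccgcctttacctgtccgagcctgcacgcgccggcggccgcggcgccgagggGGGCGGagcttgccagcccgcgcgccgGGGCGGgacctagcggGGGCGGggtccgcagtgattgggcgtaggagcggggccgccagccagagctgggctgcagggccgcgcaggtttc
In the windows shown the GC box stood once upstream of BMF and BAD, at 2 places upstream of HRK and at 3 upstream of BCL2L11. Of the 35116 windows of this length in the table, 42.6% hold at least 1. A second BMF window (chr15:40106967-40107216), not shown, holds no GC box, and a second BAD window, not shown, holds 1. The forkhead motif stood once, upstream of BCL2L11, and 2.98% of all windows hold it. The E-box CACGTG, the CRE TGACGTCA and the AP-1 motifs TGACTCA and TGAGTCA were absent from all 4 windows shown, on both strands.

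BCL2L11 encodes BIM, and its result turned on the probe. The probe used, the one with the largest variance, was dim. In PC9 its level ran from 3.49 to 6.72 without treatment and from 2.93 to 6.62 with gefitinib, and in PC9M2 from 2.14 to 5.30 and from 2.99 to 5.72, where it was well above background on 5 and 12 of 26 arrays. On that probe the gefitinib difference was 0.13 in PC9 (95% interval -0.21 to 0.46, adjusted p = 0.50) and 0.74 ± 0.13 in PC9M2 (SE, n = 26 times, 23 higher, adjusted p = 1.8e-05).

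The bright BCL2L11 probe told another story in PC9. Its level ran from 10.19 to 12.04 without treatment (median 11.33) and from 11.69 to 12.99 with gefitinib (median 12.12). In PC9M2 it ran from 11.00 to 11.90 (median 11.47) and from 11.72 to 12.72 (median 12.40). The difference on this probe was 0.89 in PC9 (95% interval 0.74 to 1.03, adjusted p = 1.3e-11) and 0.93 in PC9M2 (0.82 to 1.04, adjusted p = 4.9e-14), in a fit of every probe. The remaining pair of BCL2L11 probes gave 0.02 and 0.03 in PC9 and 0.36 and 0.40 in PC9M2. All 4 probes were thus higher with gefitinib in PC9M2, and in PC9 the bright one was and the others did not pass the test.

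BBC3, which encodes PUMA, a target of FOXO factors, was also split by probe. The probe used was saturated on 24 of 26 untreated and 25 of 26 gefitinib-treated PC9 arrays and on no PC9M2 array, so its PC9 values are bounds on most arrays. Its level ran from 15.46 to 16.87 without treatment and from 14.59 to 16.78 with gefitinib in PC9, and its gefitinib difference there was 0.02 (adjusted p = 0.89). In PC9M2 it was 0.15 (95% interval -0.13 to 0.43, adjusted p = 0.34). The other 2 probes were not saturated. One gave 0.55 in PC9 (95% interval 0.40 to 0.70, adjusted p = 1.6e-07) and 0.95 in PC9M2 (0.73 to 1.17, adjusted p = 1.3e-08), the other 0.28 (adjusted p = 0.021) and 0.53 (adjusted p = 0.00085), so BBC3 was higher with gefitinib on both.

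**Figure D3:**
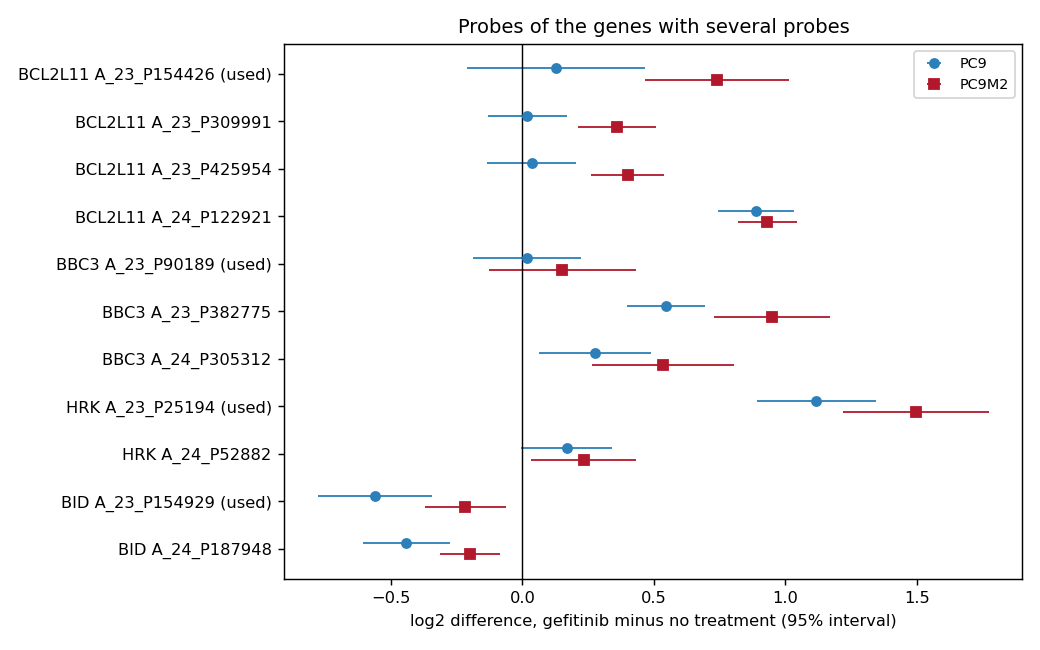
Gefitinib minus no treatment (log2 difference, mean of matched times with 95% intervals) for every probe of the 4 genes with several probes, in PC9 (circles) and PC9M2 (squares). Probes of 1 gene differ in size by more than their intervals for BCL2L11, BBC3 and HRK in both lines, whereas the BID probes lie close together.

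PMAIP1, which encodes NOXA, an MCL1 antagonist, has 1 probe. Its level ran from 8.84 to 10.40 without treatment in PC9 (median 9.50) and from 9.38 to 10.61 with gefitinib (median 10.08). In PC9M2 it ran from 8.89 to 10.59 (median 10.17) and from 9.70 to 11.14 (median 10.30). The ranges overlapped, and the medians were higher with the drug in both lines. PMAIP1 was higher by 0.49 ± 0.07 in PC9 (SE, n = 26 times, 25 higher, adjusted p = 2.7e-07) and by 0.36 ± 0.09 in PC9M2 (20 higher, adjusted p = 0.00099). The mean over 16 to 24 h was 0.53 in PC9 and 0.09 in PC9M2.

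BIK and BID were the members that were lower with gefitinib. BIK, an endoplasmic reticulum BH3-only protein, ran from 7.73 to 9.17 without treatment in PC9 (median 8.74) and from 7.20 to 9.02 with the drug (median 8.47). In PC9M2 it ran from 7.78 to 9.98 (median 9.33) and from 7.92 to 9.72 (median 8.49). It fell by 0.35 ± 0.08 in PC9 (SE, n = 26 times, 21 lower, adjusted p = 0.00028) and by 0.77 ± 0.11 in PC9M2 (23 lower, adjusted p = 6.8e-07), and the mean over 16 to 24 h was -0.57 and -1.24. With normexp the values were -0.16 in PC9 (adjusted p = 0.0044) and -0.49 in PC9M2, and at time points 3 h apart BIK no longer passed the test in PC9 (-0.37, adjusted p = 0.065).

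BID, which caspase-8 cleaves to link death receptors to mitochondria, ran from 9.104 to 10.46 without treatment in PC9 (median 9.82) and from 6.88 to 9.84 with gefitinib (median 9.43), the lowest value being the array at 16 h that correlated poorly with its neighbours. In PC9M2 it ran from 9.71 to 11.21 (median 10.31) and from 9.39 to 10.56 (median 10.09). BID fell by 0.56 ± 0.11 in PC9 (SE, n = 26 times, 24 lower, adjusted p = 3.1e-05) and by 0.22 ± 0.08 in PC9M2 (20 lower, adjusted p = 0.013). In PC9M2 the mean went from -0.47 over 0 to 6 h to 0.03 over 16 to 24 h, and at time points 3 h apart the difference was -0.07 (adjusted p = 0.59). The call was also lost with the variance inflated for autocorrelation and with the scan day as a block (adjusted p = 0.053 in both). Its second probe gave -0.44 and -0.20.

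**Figure D4:**
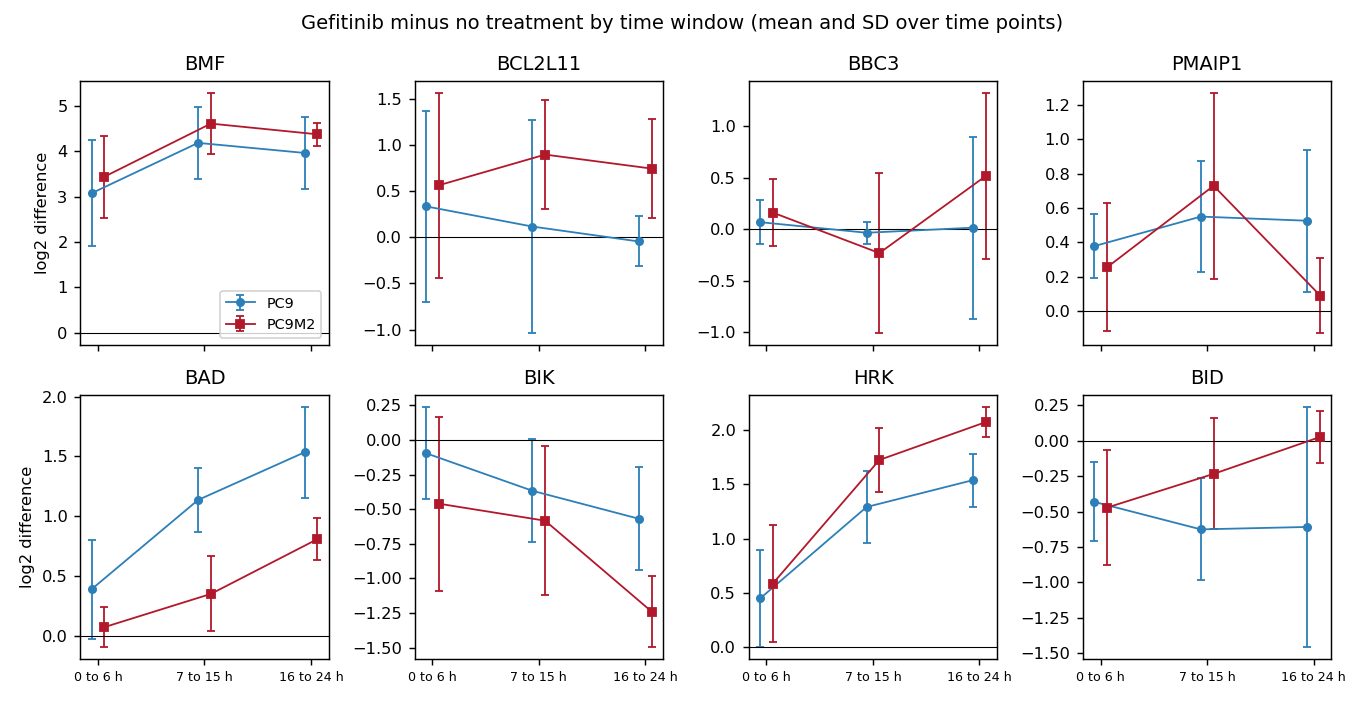
Gefitinib minus no treatment (log2 difference) for each of the 8 genes over 0 to 6, 7 to 15 and 16 to 24 h, as mean and SD over the 8, 9 and 9 time points, in PC9 (circles) and PC9M2 (squares), each panel with its own vertical scale. The differences of BMF, HRK and BAD are larger after 6 h than before in both lines, and that of BID in PC9M2 goes to 0.

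The same drug contrast in the presence of EGF uses other arrays. They lay on the same slides and at the same time points, so it is not an independent repeat. In PC9, 5 members were higher and 2 lower, where 78.9% of all genes tested differed (39% higher, 39.9% lower). In PC9M2 6 were higher and 2 lower, where 74.5% differed (36.7% higher, 37.8% lower). All 6 members called without EGF in PC9 and all 7 in PC9M2 were called in the same direction. BMF was higher by 3.97 ± 0.18 in PC9 (SE, n = 26 times, adjusted p = 4.6e-17). In PC9M2 it was higher by 4.80 ± 0.32 (adjusted p = 7.0e-12), and by 5.07 without 0.5 h. With normexp the BMF differences were 1.60 and 2.95. BAD was higher by 1.47 in PC9 and 0.65 in PC9M2, and HRK by 1.07 and 1.77, where the second HRK probe gave 0.25 (23 times measured) and 0.45. BCL2L11 passed in PC9 here (0.34, adjusted p = 0.00019) on its dim probe, and BBC3 passed in PC9M2 (0.19, adjusted p = 0.031). For BCL2L11 in PC9 the bright probe gave 0.92 and the middle pair -0.09 and 0.05, and for BBC3 in PC9M2 the other probes gave 1.06 and 0.67. The used BBC3 probe lost its call in several alternatives, with an adjusted p of 0.14 without 11, 16 and 18 h. All 8 members remained called in PC9M2 without 0.5 h.

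**Figure D5:**
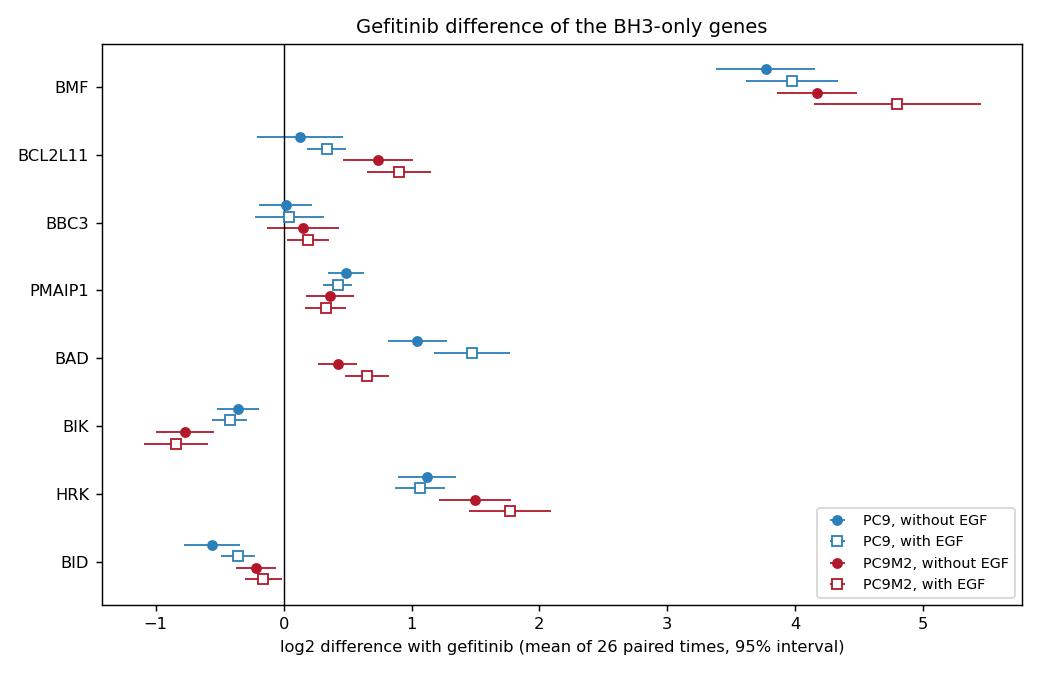
Gefitinib difference of each gene (log2 scale, mean of 26 matched times with 95% intervals), in PC9 (blue) and PC9M2 (red), without EGF (filled circles) and with EGF (open squares). BMF lies between 3.77 and 4.80 in all 4 comparisons, and BIK and BID lie below 0 in all 4.

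The second question was what EGF did. In PC9, BAD was the single member called on the probes used, lower by 0.29 ± 0.05 with EGF (SE, n = 26 times, 24 lower, adjusted p = 8.7e-05), where 25.6% of all genes tested differed (11.3% higher, 14.3% lower). The unsaturated BBC3 probes gave -0.12 and -0.08 in PC9 (adjusted p = 0.041 and 0.38 in the fit of every probe, where 22.1% of probes passed). In PC9M2, BAD was lower by 0.18 ± 0.04 (22 lower, adjusted p = 0.0028) and HRK by 0.21 ± 0.05 (20 lower, adjusted p = 0.011), where 9.13% of all genes differed (4.09% higher, 5.04% lower). The second HRK probe gave -0.21 in PC9M2 and did not pass (adjusted p = 0.29 in the fit of every probe). BMF was lower by 0.46 in PC9M2 with an adjusted p of 0.14, and by 0.57 with an adjusted p of 0.027 without 0.5 h. The PC9M2 values of BMF at 2 to 6 h, a window chosen after they were seen, were lower with EGF at 5 of 5 times, by 1.28 to 3.38. In PC9 at those times they were lower at 3 of 5, with differences from -1.84 to 0.67.

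Added to gefitinib, EGF changed none of the 8 genes in either line at an adjusted p under 0.05 (limma, 1 member in each line at an unadjusted p under 0.05), where 0.0452% of all genes tested differed in PC9 and 3.21% in PC9M2 (1.07% higher, 2.14% lower). Without 0.5 h, BMF was higher by 0.26 with EGF under gefitinib in PC9M2 (adjusted p = 0.0058). The methods' paired t-test, the other normalizations and the gene-level probe rules also called no member in either line.

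The third question was whether the lines differ. In untreated cells, 5 members were higher in PC9M2 than in PC9 and 3 were lower, where 68.1% of all genes tested differed (31.1% higher, 37% lower). BAD was higher by 1.38 ± 0.10 (SE, n = 26 times, 26 higher, adjusted p = 2.1e-13). Its ranges did not overlap, as was also so with EGF, and the share of all genes tested with such ranges was not computed. BMF was higher by 1.45 ± 0.23 (25 higher, adjusted p = 2.9e-06), and the gap went from 2.84 over 0 to 6 h to 0.71 over 16 to 24 h. BIK (0.66), PMAIP1 (0.47) and BID (0.41) were also higher. With EGF the split was again 5 higher and 3 lower (69.8% of all genes differed, 32.8% higher and 37% lower), and with EGF and gefitinib it was 4 higher and 3 lower (67.7%, 31.5% and 36.2%), BIK not passing there.

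The genes that were lower in PC9M2 were those whose probes disagreed. BCL2L11 differed by -1.92 on the dim probe, by -1.03 and -0.92 on the middle pair and by 0.14 on the bright probe (adjusted p = 0.17). HRK differed by -1.39 on the probe used and by -0.04 on the other (adjusted p = 0.91). BBC3 differed by -0.996 on the probe that was saturated in PC9. It differed by -0.20 and -0.40 on the others (adjusted p = 0.048 and 0.00018 in the fit of every probe). With gefitinib those others gave 0.20 and -0.15, and neither passed. With scaling to the 75th percentile the BBC3 value in untreated cells was 0.29 (adjusted p = 0.42). No direction between the lines that holds over treatments and scalings can thus be given for BBC3.

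With gefitinib, BMF was higher in PC9M2 by 1.85 ± 0.20 (SE, n = 26 times, adjusted p = 3.1e-09), BAD by 0.76, BID by 0.76, PMAIP1 by 0.34 and BIK by 0.24, and the other 3 were lower on the probe used, where 64.9% of all genes tested differed (30.7% higher, 34.3% lower). Over the 8 courses, the highest mean BMF levels were those of PC9M2 with EGF and gefitinib (11.01 ± 0.83, SD, n = 26 times) and with gefitinib alone (10.85 ± 0.83), followed by PC9 with gefitinib (9.00 ± 0.41) and with both (8.94 ± 0.42). Below them came PC9M2 without treatment (6.68 ± 1.26) and with EGF (6.22 ± 1.36), and PC9 without treatment (5.23 ± 0.84) and with EGF (4.97 ± 0.83). Neighbours in this order differed by more than their SD at 2 steps only, between the lines with the drug and between drug and no drug. The PC9M2 means with EGF include the arrays at 0.5 h.

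The size of the gefitinib difference was also compared between the lines. It was larger in PC9M2 for BMF by 0.40 ± 0.14 (SE, n = 26 times, adjusted p = 0.032) and for HRK by 0.38 ± 0.09 (adjusted p = 0.0019), whereas for BAD it was smaller (-0.62 ± 0.09, 24 of 26 times, adjusted p = 9.6e-06). Of all genes tested 34% differed, 17% higher and 16.9% lower. The BMF value was 1.09 with normexp and did not pass with scaling to the 75th percentile (0.37, adjusted p = 0.061). The difference of BIK was more negative in PC9M2 by -0.42 ± 0.10 (adjusted p = 0.0013), and that of BID less negative by 0.34 ± 0.13 (adjusted p = 0.038). For BID the second probe did not pass (0.24, adjusted p = 0.081), nor did the value without 11, 16 and 18 h (0.25, adjusted p = 0.054). BCL2L11 differed by 0.61 on the dim probe, by 0.34 and 0.37 on the middle pair and by 0.04 on the bright one (95% interval -0.14 to 0.22, adjusted p = 0.76). On the dim probe the median over the times was 0.29. The highest value was 4.17 at 14 h, where PC9 with gefitinib read 2.93. HRK differed by 0.02 on its second probe (95% interval -0.22 to 0.27). PMAIP1 (-0.13, 95% interval -0.36 to 0.11) and BBC3 (0.13, -0.18 to 0.45) did not pass the test, whereas of the unsaturated BBC3 probes one differed by 0.40 (adjusted p = 0.00014) and the other by 0.26 (adjusted p = 0.17).

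The members also changed over the day within single courses. By the spline F-test 6 of 8 changed in PC9 without treatment, 7 with gefitinib, 6 with EGF and 6 with both, where 66.3%, 77.8%, 78.8% and 83.1% of all genes tested did. In PC9M2 the counts were 7, 5, 6 and 7, where 67.2%, 63.7%, 74.9% and 67.7% of all genes did. BMF changed in all 8 courses, with the widest fitted range in PC9M2 without gefitinib, 3.43 without treatment and 3.75 with EGF. HRK in PC9 passed the test in both gefitinib courses (fitted range 1.27 and 1.35) and in neither course without the drug. The gefitinib difference itself changed over time for 4 members in PC9 (BMF, BAD, BIK and HRK) and for those and PMAIP1 in PC9M2. It did so for 52.3% of all genes tested in PC9 and 45.5% in PC9M2.

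The rest of the pathway was read from lists. The 10 genes listed as ERK output were read as mRNA levels, and the activity of ERK was not measured. In PC9 all 10 fell, with a median difference of -3.77, where 37.2% of all genes tested were lower. In PC9M2 9 of 10 fell, with a median of -1.07, where 34.2% of all genes were lower. DUSP6, a phosphatase induced by ERK, fell by 6.80 in PC9 and by 2.17 in PC9M2, and EGR1 differed by 0.60 in PC9M2 (adjusted p = 0.091). The gefitinib difference was higher in PC9M2 for 10 of 10, where 17% of all genes tested were higher. The median gap between the lines was 2.36, and for genes that fell in both lines it marks a smaller fall in PC9M2. For BMF the gap was 0.40, and it marks a larger rise in PC9M2 (4.17, against 3.77 in PC9) and not a smaller fall.

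Of the 6 survival genes listed, 4 were tested. BCL2L1, which encodes BCL-XL, fell with gefitinib by 1.64 in PC9 and by 1.16 in PC9M2, and MCL1 fell by 0.59 and by 0.55. BCL2 fell by 0.94 in PC9 and differed by -0.39 in PC9M2 (adjusted p = 0.078), and BCL2L2 was higher by 0.30 and 0.09. Of the 3 effectors, BAK1 fell in both lines, by 0.42 and by 0.39, BOK was higher in PC9 by 0.29 (adjusted p = 0.044), and BAX did not pass the test in either line. Of the 12 genes of the apoptosome and its inhibitors, 5 were higher and 6 lower in PC9, and 4 were higher and 6 lower in PC9M2, where 72.3% and 66.7% of all genes tested differed. APAF1 rose by 0.57 and 0.75, and CYCS, which encodes cytochrome c, fell by 1.03 and by 0.95.

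Of the 10 listed regulators of BH3-only genes, 9 were tested, with 4 higher and 3 lower in PC9 and 5 higher and 3 lower in PC9M2, against the same 72.3% and 66.7% of all genes. FOXO4 rose by 1.33 in PC9 and 1.08 in PC9M2, and FOXO1 by 0.96 and 0.67. JUN fell by 1.61 and by 1.64, MYC by 1.74 and by 1.19, and E2F1 by 1.22 and by 0.93. ATF4 rose by 0.52 and 0.36. FOXO3 differed by 0.0024 in PC9 (adjusted p = 0.98) and rose by 0.16 in PC9M2, and DDIT3 did not pass the test in either line. These are mRNA levels of the regulators, and the activity of the proteins was not measured.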

How the data were processed

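The authors hybridized the RNA of each time point to a one-colour Agilent human array (Cy3, annotation on hg18, Feature Extraction 10.5.1.1 per the file headers). They deposited the scanner output, whose processed signal is a linear intensity, and a table of normalized intensity that equalled a quantile normalization over all 45015 spots (median difference 2.2e-07 on the log2 scale). The members and gene lists were chosen with earlier results of these data known. Here the processed signal of the non-control spots was quantile-normalized over all arrays, floored at 1 and taken to log2, outlier spots (0.301% of values) were left out, and replicate spots were combined as their mean. A gene name was found through the accession for 24794 of 41000 probes. Each gene took its probe of largest variance, and 13263 genes well above background on at least 13 of 26 arrays of a course were tested (3698 were not). Differences at matched times were tested two-sided with limma 3.58.1 in R 4.3.3, and change over time with an F-test of a natural spline with 4 degrees of freedom, both with Benjamini-Hochberg adjustment over all genes tested. Both tests were tried on simulated data. The lag-1 autocorrelation of member differences reached 0.83 (PC9M2 minus PC9 with gefitinib). This was above any value simulated, so the trial does not cover such cases. The 4 treatments of a line at 1 time point lay on 1 of 52 slides, so the time point pairs the arrays. Named genes were the members, genes of the counted lists and the 3 genes of highest likeness to a member. The number of arrays limits the precision. The alternatives were 75th percentile and normexp (offset 50, median signals, as the mean signal was not used here) scaling, the deposited table, other probe rules, filters and floor, time points 3 h apart, autocorrelation, scan day and pairing. Leaving out 0.5 h or 11, 16 and 18 h and fitting every probe were chosen after the data were seen. The result of 1 listed regulator is not reported here.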

Additional observations from a re-analysis of the deposited data

Results flagged for a closer look

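The gefitinib difference in PC9M2 minus that in PC9 passed its own test for 6 members, where 34% of all genes tested passed (17% higher, 16.9% lower). At time points 3 h apart it passed for 0 members. It was 0.40 for BMF (adjusted p = 0.032), 0.61 for BCL2L11 (0.023), 0.38 for HRK (0.0019), 0.34 for BID (0.038), -0.62 for BAD (9.6e-06) and -0.42 for BIK (0.0013), by limma on 26 matched times. The value for BCL2L11 is from the probe that is dim in PC9M2, where the median over the times was 0.29 and the highest value 4.17, at 14 h. The middle pair of BCL2L11 probes gave 0.34 (adjusted p = 0.0057) and 0.37 (0.0015), and the bright probe gave 0.04 (0.76). The value for HRK was 0.02 on its second probe, and that for BID was 0.24 on its second probe (adjusted p = 0.081). The lines were scanned on different days, so line and scan period cannot be told apart.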

How the results depend on the processing

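Of 326 recomputed counts of members called, 307 stayed within 1.5 times the count reported. The exceptions follow, and their cause was not tested beyond the fewer samples or wider variance that some settings bring. The gefitinib difference between the lines, called for 6 members, was called for 3 with normexp, 3 with the probe of highest mean, 0 at time points 3 h apart and 1 without the pairing (no replicate block). EGF minus no treatment was called for 0 members in both lines at 3 h spacing and without the pairing, and for 1 in PC9M2 with the probe of highest mean or the variance inflated for autocorrelation. At 3 h spacing gefitinib with EGF minus EGF in PC9M2 was called for 5 members, as was PC9M2 minus PC9 with gefitinib, the latter also for 5 with the inflated variance. Without 0.5 h, EGF under gefitinib in PC9M2 was called for 1 member. With the mean of all probes the gefitinib difference changed over time for 8 members in PC9M2. Change over time in PC9M2 with gefitinib was called for 3 members with a spline of 3 degrees of freedom and for 2 with the scan day as a block, and with that block for 3 in PC9 without treatment and 3 with EGF and gefitinib. The pairing changed no other count of members by over 1.5 times.

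Of 2644 recomputed values of single members, 2435 kept direction and call, 129 lost the call, 56 gained it and 24 changed sign. All that changed sign were values of BBC3, BCL2L11 and HRK. PC9M2 minus PC9 (without treatment, with gefitinib, EGF and both, in that order) was 0.29, 0.27, 0.24 and 0.33 for BBC3 with scaling to the 75th percentile. For BCL2L11 it was 0.14, 0.17, 0.17 and 0.26 with normexp, and 0.14, 0.18, 0.15 and 0.27 with the probe of highest mean, which is the bright one. For HRK on the brighter probe it was 0.0489 with gefitinib and 0.00090 with both. For BBC3 on the unsaturated probes it was 0.20 with gefitinib and 0.23 with both on one, and 0.0746 with both on the other. BCL2L11 on a middle probe differed by -0.0893 for gefitinib with EGF minus EGF in PC9.

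Counts over all genes moved by over 1.5 times in 29 of 322 recomputations. Over the alternatives, EGF minus no treatment went from 3395 genes down to 400 in PC9 and from 1211 down to 14 in PC9M2, EGF under gefitinib ran from 0 to 21 in PC9 (6 reported) and from 0 to 954 in PC9M2 (426 reported), and the gefitinib difference between the lines went from 4507 down to 1037. Of the line differences, that without treatment went from 9033 down to 5887, that with EGF from 9260 to 5734 and that with both from 8980 to 5723, all at 3 h spacing. With the scan day as a block, change over time in PC9 with both went from 11027 to 6814, and in PC9M2 from 8911 to 5152 without treatment, 8445 to 3557 with gefitinib, 9940 to 6369 with EGF and 8985 to 4547 with both.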
